A study of Rattus norvegicus with 19 samples.

Results

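The genes described here make up hepatic gluconeogenesis and glucose output, a set of 9 genes: G6pc1, Pck1, Slc37a4, Fbp1, Pc, Ppargc1a, Slc2a2, Pdk4 and Foxo1. Their probe sets were taken from 2 array types wherever the annotation listed exactly 1 gene and that gene was in the set. This gave 13 probe sets of 8 genes (10 on the first type, 3 on the second), among 13811 genes with a probe set of their own on either type. G6pc1, the catalytic subunit of glucose-6-phosphatase, had no probe set of its own and was not analysed here, because the 4 probe sets that list it also list Psme3 and Aoc3. A filter on low values kept 10 of the 13 probe sets, and these covered all 8 genes.

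The livers came from adult rats killed 8 h after a single intraperitoneal injection that followed an overnight fast. The PCN group received PCN (pregnenolone carbonitrile), a steroid-based ligand of the pregnane X receptor in rodents, at 100 mg/kg, and the corn oil group received the vehicle. Both groups had therefore been fasted, and the labels say only that the rats were adult, with no strain or sex. The first array type had 5 PCN and 5 corn oil arrays, and the second had 5 PCN and 4 corn oil arrays with the same replicate numbers, taken here as the same livers, since no array of that type was analysed here for corn oil replicate 2. The labels call the replicates biological. All values are on a log2 scale, so a difference of 1 is a doubling, and the number of arrays limits the precision.

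During fasting the liver keeps blood glucose up by making glucose from lactate, pyruvate, amino acids and glycerol. Pc turns pyruvate into oxaloacetate, Pck1 turns oxaloacetate into phosphoenolpyruvate, Fbp1 removes a phosphate from fructose bisphosphate, and glucose-6-phosphatase with its transporter Slc37a4 frees glucose in the endoplasmic reticulum, after which Slc2a2 lets it cross the cell surface. Glucagon and glucocorticoids turn on Pck1 and G6pc1 through CREB, the glucocorticoid receptor and the coactivator Ppargc1a, while insulin silences both by expelling Foxo1 from the nucleus. Pdk4 blocks pyruvate dehydrogenase and so spares pyruvate for this route. In studies of mice and of cultured cells the ligand-bound pregnane X receptor is known to interfere with Foxo1, CREB and Hnf4a, which are the activators of Pck1 and G6pc1.

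Hepatocyte markers were among the brightest features, with all 14 tested at or above the 99.2 percentile of their array type, the first. From limma 0 of them were called, and 3 were higher and 1 lower at an unadjusted p below 0.05. Over all probe sets tested on that array type, 11% were higher and 6.71% lower at that p. Of the 12 listed genes of the pregnane X receptor and its targets 7 rose, led by Alas1, the first enzyme of heme synthesis, at 13.42 ± 0.18 after PCN and 11.68 ± 0.31 in corn oil (SD, n = 5 each; limma log2 fold change 1.74, adjusted p = 0.000119). Cyp3a18, a drug-oxidizing P450, gave 1.31 (adjusted p = 0.00384), Por, which passes electrons to P450s, 1.27 (0.000751), and the drug exporter Abcb1a 1.03 (0.00543). All 12 were tested on the first array type, where limma called 2.31% of all probe sets higher. Single arrays stood apart from their group. In a principal component analysis of deviations from the group means, the first component held 36.7% of the variance on the first array type and was led by corn oil replicate 2. On the second array type it held 27% and was led by PCN replicate 5. Median values per array lay between 7.72 and 7.81 on the first array type. On the second they were 6.25 to 6.26 in PCN replicates 1 to 4, 6.32 in PCN replicate 5 and 6.32 to 6.33 in corn oil.

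PCN lowered 2 of the 8 genes and raised none past the threshold of 0.05 on the adjusted p: Slc37a4 (the first array type) and Ppargc1a (the second). On the first array type 1 of the 8 tested probe sets was called lower, where limma called 0.945% of all 11106 tested lower, 2.31% higher and 3.25% in either direction. No member was higher, also at an unadjusted p below 0.05, where 11% of all were. On the second 1 of 2 was called lower, against 1.64% of the 10693 tested there, with 3.76% called higher and 5.4% in either direction. Again no member was higher, also at an unadjusted p below 0.05, where 13.2% of all were and 14.1% were lower. At an unadjusted p below 0.05, 3 of the 8 were lower on the first array type, against 6.71% of all. The median log2 fold change of the 8 probe sets was -0.11, against 0.00 over all those tested. Groups did not overlap for 1 of the 8, which was lower, and for 0 of the 2 on the second array type. Over all probe sets, groups lay apart in the lower direction for 2.05% (first array type) and 5.32% (second), and in the higher direction for 3.99% and 5.06%. The plot of fold changes sets the 10 tested probe sets side by side.

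**Figure D1:**
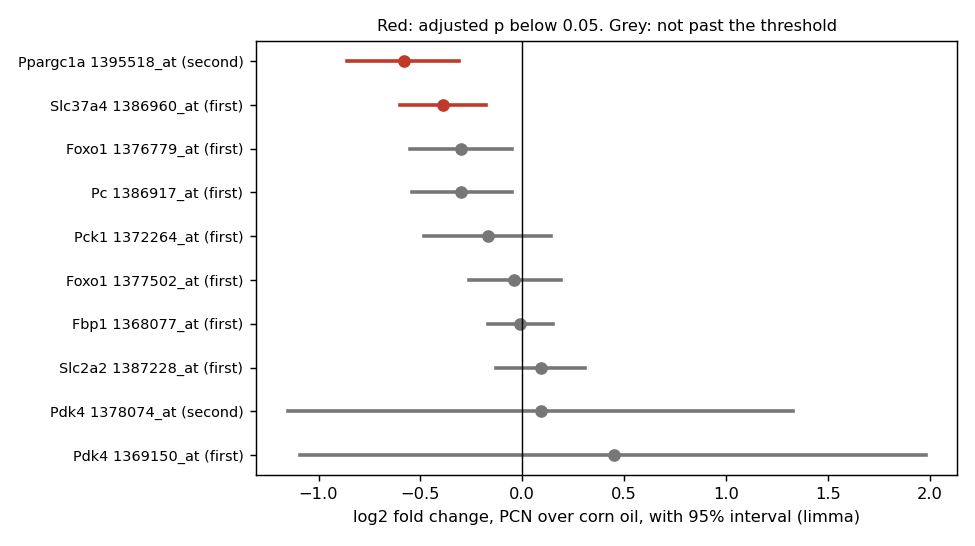
Log2 fold change of PCN over corn oil (horizontal axis) for the 10 tested probe sets, named by gene, probe set and array type, with the 95% interval from limma. The intervals of Ppargc1a and Slc37a4, in red, run from -0.86 to -0.31 and from -0.60 to -0.18, while both Pdk4 intervals are over 2 log2 units wide.

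Glucose output begins with Slc37a4, the carrier that brings glucose 6-phosphate into the endoplasmic reticulum to be cleaved (GRCr8 chromosome 8, 53619952 to 53626110). On the first array type it read 11.56, 11.40, 11.14, 11.37 and 11.51 in the 5 PCN livers, against 11.82, 11.70, 11.69, 11.95 and 11.78 in the 5 corn oil livers. Every PCN liver lay below every corn oil liver. The mean was 11.40 ± 0.16 after PCN and 11.79 ± 0.11 in corn oil (SD, n = 5 each), so that Slc37a4 fell by 23.7% (log2 fold change -0.39 ± 0.09 SE, adjusted p = 0.0459, limma). In whole liver, a lower level per cell and fewer cells that express a gene cannot be told apart. The size of the difference was steady, between -0.43 and -0.33 when any single array was left out, but the call was lost without 9 of the 10 arrays, with an adjusted p of up to 0.121 without corn oil replicate 4. It was kept without corn oil replicate 2 (-0.41, adjusted p = 0.0463). With the replicate number as a block the adjusted p was 0.076, and it was 0.157 (log2 fold change -0.40) once a term separated 2 sets of arrays taken from an earlier analysis of these values. A term for 2 sets split by the sign of the first principal component kept the call (-0.41, adjusted p = 0.0368).

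The window around the Slc37a4 start site is shown because this was a gene that fell, with matches of the core of the cAMP response element in capitals. It covers 250 bases before and 50 after the first of the 2 starts that RefSeq lists in GRCr8 (chr8:53619775-53620074, plus strand).
Slc37a4: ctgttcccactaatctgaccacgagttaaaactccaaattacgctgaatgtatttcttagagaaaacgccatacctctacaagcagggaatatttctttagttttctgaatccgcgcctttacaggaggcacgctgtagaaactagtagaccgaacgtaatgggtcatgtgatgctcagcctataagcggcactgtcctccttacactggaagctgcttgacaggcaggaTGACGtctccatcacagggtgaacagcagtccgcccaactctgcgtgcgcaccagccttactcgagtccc
The core TGACG, or CGTCA on the other strand, stood once in this window, at position -20 from the start. It is found in 21.2% of the 33469 promoter windows of the same length. The window of the other start overlapped the first and held 2 matches.

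Slc2a2, the low-affinity glucose carrier of the hepatocyte surface (chromosome 2, 113537884 to 113568422), read 12.46, 12.22, 12.38, 12.35 and 12.50 after PCN, against 12.49, 12.29, 11.95, 12.29 and 12.44 in corn oil. The groups overlapped, and corn oil replicate 3 lay below all the others. Its log2 fold change was 0.09, with a 95% interval of -0.13 to 0.31 (adjusted p = 0.695, limma), which on a linear scale allows from 0.912 to 1.24 times the corn oil level. Without corn oil replicate 3 the log2 fold change was 0.0043. Slc2a2 thus did not pass the test where Slc37a4 did, and the difference between the genes was not tested.

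The gluconeogenic enzymes themselves gave no call. Pck1, which commits oxaloacetate to glucose (chromosome 3, 182348572 to 182354521), read 13.05, 13.66, 13.55, 12.91 and 13.63 in PCN livers, against 13.33, 13.54, 13.52, 13.60 and 13.66 in corn oil livers. In the PCN group 3 livers lay inside the corn oil range, and replicates 1 and 4 lay below all of it. The mean was 13.36 ± 0.35 after PCN and 13.53 ± 0.12 in corn oil (SD, n = 5 each; log2 fold change -0.17, 95% interval -0.48 to 0.14, adjusted p = 0.586, limma). The data therefore allow Pck1 between 0.717 and 1.10 times its corn oil level. Without PCN replicate 4 the log2 fold change was -0.056, and it was -0.11 with the term from the first principal component and 0.019, of the opposite sign, with the term for the sets of the earlier analysis.

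The mean level of Pck1 in these fasted rats stood at percentile 99.3 of its array type. Its promoter is shown because the cAMP response element just upstream of the start is the textbook route by which glucagon induces it (chr3:182348322-182348621, plus strand, RefSeq, GRCr8).
Pck1: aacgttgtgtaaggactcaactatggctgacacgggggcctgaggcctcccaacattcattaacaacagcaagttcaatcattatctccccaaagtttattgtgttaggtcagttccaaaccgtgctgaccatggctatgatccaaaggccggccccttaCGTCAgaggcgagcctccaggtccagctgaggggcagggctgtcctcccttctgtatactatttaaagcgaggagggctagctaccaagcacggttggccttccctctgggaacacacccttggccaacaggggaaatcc
The capitals mark the match of the CGTCA core, which began at position -90 from the start. Neither forkhead motif searched, GTAAACA and CAAAACA on both strands, matched in this window.

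Pc, pyruvate carboxylase (chromosome 1, 211228708 to 211327792), had the largest difference among the 3 gluconeogenic enzymes Pck1, Pc and Fbp1. It read 10.40, 10.63, 10.88, 10.45 and 10.84 after PCN, against 10.94, 10.75, 10.98, 11.06 and 10.94 in corn oil. All PCN values but those of replicates 3 and 5 lay below the corn oil range. The log2 fold change was -0.30 ± 0.11 (SE), with a 95% interval of -0.54 to -0.05. The adjusted p was 0.193 (limma). Leaving out any single array gave -0.36 to -0.24. Fbp1, fructose-1,6-bisphosphatase (chromosome 17, 2212941 to 2235749), averaged 13.67 ± 0.14 after PCN and 13.68 ± 0.09 in corn oil (SD, n = 5 each). Its PCN values ran from 13.55 to 13.86 and its corn oil values from 13.52 to 13.76, and the interval of the log2 fold change, -0.17 to 0.15, was the narrowest of the 10 tested probe sets (adjusted p = 0.957).

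PCN replicates 1 and 4 were the lowest of the PCN livers for 4 of the 8 probe sets tested on the first array type, those of Pck1, Pc, Fbp1 and Pdk4. That pair of livers was picked after the values were seen. Its share over all probe sets is not given here, so the order cannot be called particular to these genes. For Slc37a4 the order was another, with PCN replicate 1 the highest of its group. The plot of members by liver shows both patterns.

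**Figure D2:**
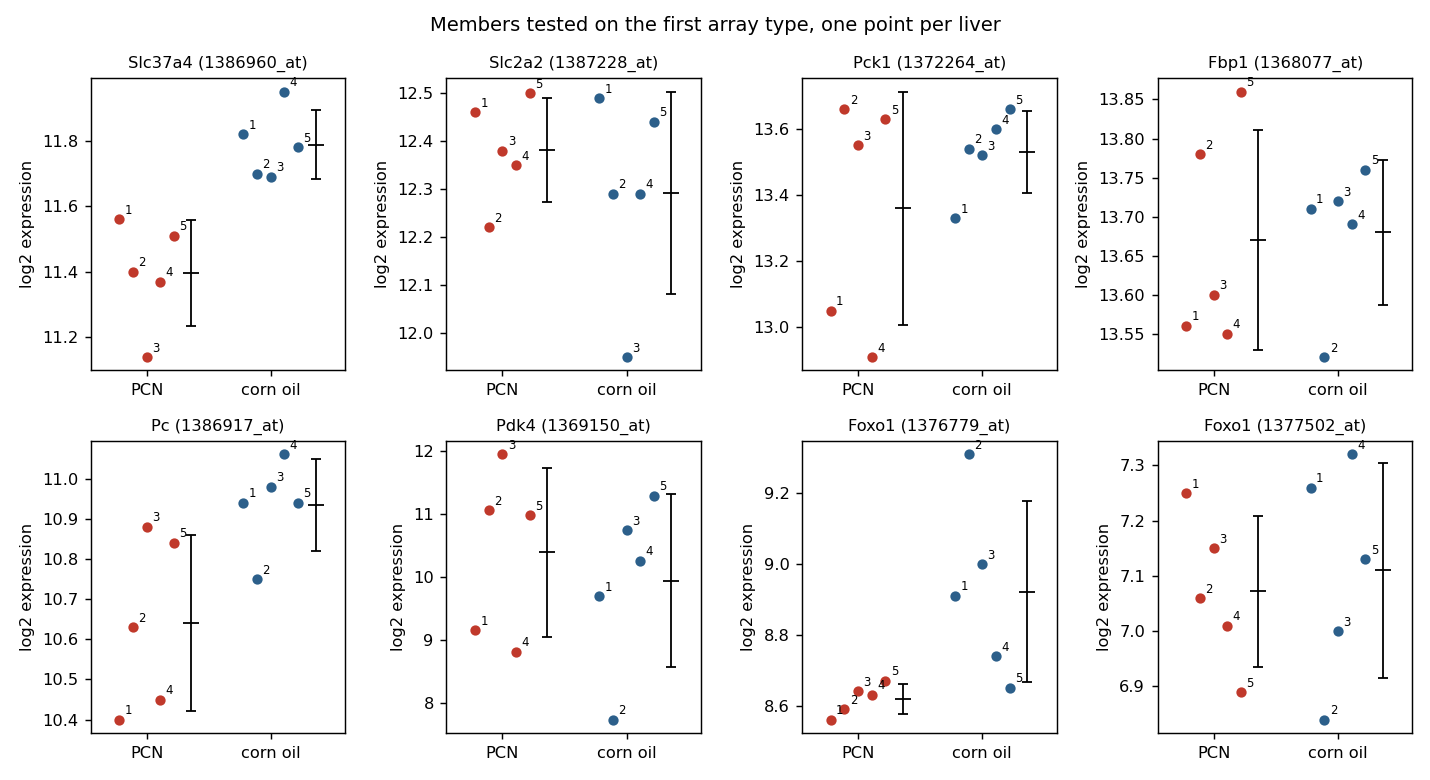
Log2 expression (vertical axes, each on its own scale) of the 8 probe sets tested on the first array type. Each point is a liver, numbered by replicate, and the bar shows the mean and SD of 5 livers. Slc37a4 is the panel in which the PCN and corn oil points do not overlap. In the panels of Pck1, Fbp1, Pc and Pdk4, livers 1 and 4 lie lowest within the PCN group.

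Among the regulators, Ppargc1a, the coactivator that fasting and glucagon induce to switch on Pck1 and G6pc1 (chromosome 14, 63073505 to 63729215), was lower after PCN. Its tested probe set on the second array type read 7.06, 7.30, 6.98, 7.08 and 7.28 in the 5 PCN livers, against 7.28, 7.82, 7.88 and 7.90 in corn oil replicates 1, 3, 4 and 5. Corn oil replicate 1 sat within the PCN range and the other 3 corn oil livers lay above all PCN livers. The mean was 7.14 ± 0.14 (SD, n = 5) after PCN and 7.72 ± 0.30 (SD, n = 4) in corn oil. Ppargc1a thus fell to 0.668 times the corn oil level (log2 fold change -0.58 ± 0.13 SE, 95% interval -0.86 to -0.31, adjusted p = 0.0285, limma). Leaving out corn oil replicate 1 gave -0.73 (adjusted p = 0.00657), and leaving out PCN replicate 5, the array that stood apart, gave -0.62 (adjusted p = 0.019). The call was lost when each of 6 other arrays was left out, with an adjusted p of up to 0.0929 without corn oil replicate 4, and in an unmoderated test (0.11).

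Arrays differed in their medians on the second array type, so the scaling bears on this value. With all arrays shifted to a common median the log2 fold change of Ppargc1a was -0.53 (adjusted p = 0.0351), and after quantile normalization it was -0.60 (adjusted p = 0.027). Centring each array on the 100 probe sets that both types carry gave -0.86, a setting under which the median over all tested was itself -0.31. Features as bright as this one had a median log2 fold change of -0.04.

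The other 2 probe sets of Ppargc1a lay below the filter on low values and are given as values. On the second array type the other one read 5.16, 5.09, 4.95, 4.98 and 5.17 in PCN livers, against 5.17, 6.13, 5.80 and 5.60 in corn oil livers. Corn oil replicate 1 was again the lowest of its group, level with the highest PCN liver after rounding. Without a filter this probe set had the value -0.61 on the log2 scale (adjusted p = 0.0444, limma). On the first array type the probe set of Ppargc1a read 4.85, 5.05, 4.90, 4.92 and 4.99 after PCN, against 5.06, 4.94, 5.32, 5.12 and 5.26 in corn oil, and without a filter its log2 fold change was -0.20 (adjusted p = 0.192). There the corn oil liver inside the PCN range was replicate 2, which has no value on the second array type. All 3 probe sets had a lower mean after PCN, but they were measured in the same livers and are not independent repeats.

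**Figure D3:**
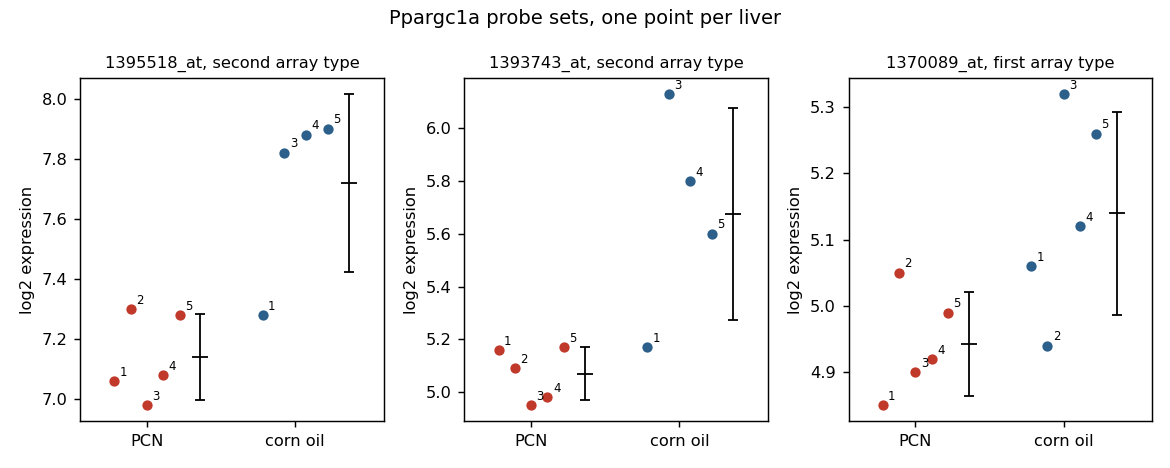
Log2 expression (vertical axes, each on its own scale) of the 3 Ppargc1a probe sets, with a point per liver numbered by replicate and bars for the mean and SD. On the second array type corn oil liver 1 lies at the level of the PCN livers and corn oil livers 3, 4 and 5 lie above them.

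The start of Ppargc1a that RefSeq places at this window is shown because of the fall of the gene and its known induction by CREB (chr14:63634058-63634357, plus strand, GRCr8).
Ppargc1a: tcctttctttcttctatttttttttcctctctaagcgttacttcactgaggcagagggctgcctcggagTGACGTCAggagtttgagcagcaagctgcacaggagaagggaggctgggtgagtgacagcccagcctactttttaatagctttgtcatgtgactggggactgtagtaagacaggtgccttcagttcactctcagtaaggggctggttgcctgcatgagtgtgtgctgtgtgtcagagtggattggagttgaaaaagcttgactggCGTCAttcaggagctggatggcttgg
The capitals mark matches of the core TGACG on either strand, of which 2 overlap in the full palindrome TGACGTCA, at position -181 from the start. That palindrome was found in 1.83% of the 33469 promoter windows, and among the 9 windows of the set only in this one. Of the 9 genes 8 had a window, Slc37a4 had 2 and Pc had none. Of the forkhead motifs, GTAAACA matched none of the 9 windows and 3.78% of all, and CAAAACA matched only that of G6pc1 and 6.28% of all. Direct repeats of AGTTCA with 3 or 4 bases between, of the kind bound by nuclear receptors, matched none of the 9 and 0.00598% and 0.012% of all, and TGTTCT, the core of the glucocorticoid receptor site, matched that of Slc2a2 and 20.7% of all windows.

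Foxo1, the forkhead factor through which insulin restrains Pck1 and G6pc1 (chromosome 2, 138462974 to 138541420), had 3 probe sets that did not give the same picture. The first of them read 8.56, 8.59, 8.64, 8.63 and 8.67 in PCN livers, against 8.91, 9.31, 9.0, 8.74 and 8.65 in corn oil livers. PCN livers lay close together and corn oil livers spread upward from their level, with replicate 2 the highest. The log2 fold change was -0.30 ± 0.12 (SE, n = 5 per group, adjusted p = 0.191, limma), and -0.21 without corn oil replicate 2. The value passed the threshold under 1 setting, centring on the common probe sets (-0.38, adjusted p = 0.0481), which by itself moved all values down by 0.08. The second averaged 7.07 ± 0.13 after PCN and 7.11 ± 0.20 in corn oil (SD, n = 5 each; log2 fold change -0.04, interval -0.26 to 0.19). The third, below the filter, averaged 6.29 ± 0.14 after PCN and 6.21 ± 0.06 in corn oil (SD, n = 5 each).

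Pdk4, the kinase that shuts pyruvate dehydrogenase in fasting (chromosome 4, 34558327 to 34568329), differed far more between livers of the same group than between groups. On the first array type it read 9.15, 11.06, 11.95, 8.81 and 10.98 after PCN, against 9.69, 7.73, 10.74, 10.26 and 11.29 in corn oil. High and low livers were found in both groups, and the highest exceeded the lowest, that of corn oil replicate 2, 18.6-fold. The array of that liver also led the first principal component on this array type. The within-group SD of 1.36 exceeded that of 99.9% of probe sets tested, whose median was 0.17. The log2 fold change was 0.45, with an interval of -1.09 to 1.98 (adjusted p = 0.785, limma), so that neither a fall to 0.471 times nor a rise to 3.94 times the corn oil level is left out. Without corn oil replicate 2 the sign turned, at -0.11.

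The order of the livers was nearly the same on the second array type. There Pdk4 read 10.10, 11.81, 12.61, 9.42 and 11.29 in PCN livers, against 9.89, 11.35, 10.90 and 11.68 in corn oil replicates 1, 3, 4 and 5. PCN replicate 3 was the highest and PCN replicate 4 the lowest on both types among the 9 livers they share, here over a 9.09-fold range. Its within-group SD of 1.10 stood at percentile 100.0, after rounding, of the probe sets tested there. Across the 9 livers measured on both array types, the Pdk4 values correlated with Pearson's r = 0.98 (exact permutation p = 9.37e-05, 0.000187 adjusted over 2 relations computed) and Spearman's rho = 0.95 (exact permutation p = 0.000353, 0.000706 adjusted). Without the 2 livers farthest from the median, PCN replicates 1 and 4, r was 0.98. Each of the 2 relations set probe sets of 1 gene against each other in what were taken as the same livers. Its p thus speaks only to the repeatability of the measurement. Groups of 5 and 4 livers are too small for a coefficient of their own. The other relation was that of the Ppargc1a probe set below the filter on the first array type with the tested one on the second. It gave r = 0.91 (exact permutation p = 0.00086, the same after adjustment) and rho = 0.90 (exact permutation p = 0.0016, the same after adjustment) over the 9 livers, pooled over groups whose means differed. Without the 2 livers farthest from the median, corn oil replicates 3 and 5, r was 0.84. The log2 fold change on the second array type was 0.09 (interval -1.15 to 1.33, adjusted p = 0.935, limma). It took the opposite sign after quantile normalization (-0.15), cyclic loess (-0.18) and centring on the common probe sets (-0.19).

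**Figure D4:**
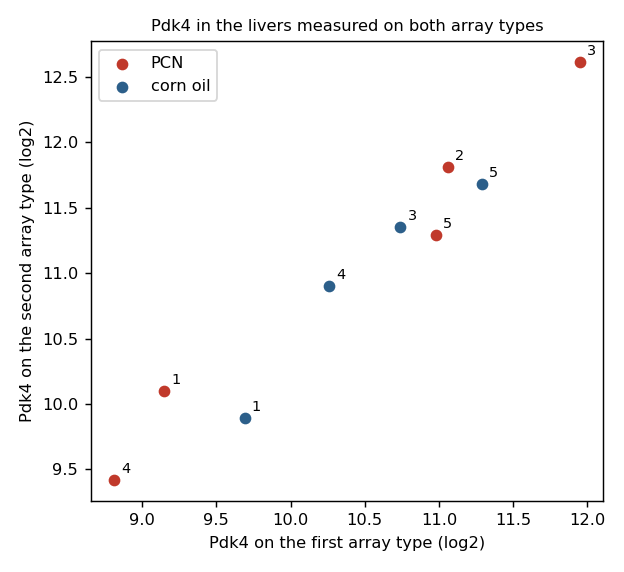
Pdk4 in each liver on the first array type (horizontal axis, log2) against the second (vertical axis, log2), with replicate numbers. The 9 livers lie along a line from PCN 4 at 8.81 and 9.42 to PCN 3 at 11.95 and 12.61, with PCN and corn oil livers interleaved.

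Genes whose values most resembled those of Pck1 and Pdk4 over the 10 arrays of the first type were taken by Pearson correlation, as a description of arrays that share their treatment and scaling. Those of Pck1 were Angptl4, an inhibitor of lipoprotein lipase (r = 0.97), Cyp8b1, the sterol 12-hydroxylase of bile acid synthesis (r = 0.97), and Klf10, a zinc finger transcription factor (r = 0.95). None of the 3 passed the test, with log2 fold changes of -0.82, -0.87 and -0.52 (adjusted p from 0.341 to 0.439, limma; Klf10 0.392). Those of Pdk4, a gene added to this comparison after its values were seen, were Hadhb, a subunit of the mitochondrial enzyme of fatty acid oxidation (r = 0.96), the phospholipid exporter Abcb4 (r = 0.95) and Nr1i2, the pregnane X receptor itself (r = 0.94). Nr1i2 read from 10.18 to 11.33 over the 10 arrays and differed by 0.11 (adjusted p = 0.815, limma). These coefficients include corn oil replicate 2, the array with the lowest Pdk4 value (7.73), which also led the first principal component. No coefficient without that array is given here, so how far it carries the likeness was not tested. Ppargc1a and G6pc1 had no tested probe set of their own on the first array type.

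Around the set, 28 other gluconeogenic enzymes and carriers were tested, each by its brightest probe set, 27 of them on the first array type. Of these, limma called 2 lower and 0 higher. At an unadjusted p below 0.05, 5 were lower and 1 was higher. Over all tested probe sets, limma called 0.945% (first array type) and 1.64% (second) lower, and 2.31% and 3.76% higher. At the unadjusted p, 6.71% and 14.1% of all were lower, and 11% and 13.2% were higher. Aqp9, the channel that lets glycerol into the hepatocyte, fell to 11.16 ± 0.21 after PCN, against 11.88 ± 0.16 in corn oil (SD, n = 5 each; log2 fold change -0.73, adjusted p = 0.00602, limma). No PCN liver overlapped a corn oil liver, and the call held in all 24 alternatives, with values from -0.82 to -0.61. Gpt2, the mitochondrial alanine aminotransferase that feeds alanine into pyruvate, averaged 9.42 ± 0.21 (SD, n = 5) after PCN on the second array type, with a range of 9.20 to 9.70 against 9.65 to 10.18 in the 4 corn oil livers. It fell by 0.58 on the log2 scale (adjusted p = 0.0328), but 7 of the 9 arrays each ended the call when left out, and corn oil replicate 4 did so most (0.0997). With the replicate block its adjusted p was 0.112. A probe set of Slc25a13 other than the one that stands for it, the mitochondrial aspartate and glutamate carrier, passed on the second array type (log2 fold change 0.50, adjusted p = 0.025), and it is named after its value was seen. The probe set that stands for Slc25a13 gave 0.11 (adjusted p = 0.71). The call on the second array type was lost after cyclic loess (0.19, adjusted p = 0.25), when centred on the common probe sets (0.22, adjusted p = 0.111) and when 6 of the 9 arrays were left out in turn (at most 0.0797, when corn oil replicate 4 was absent). The median log2 fold change of the 28 genes was -0.06.

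Of 23 tested genes of glycolysis and pyruvate dehydrogenase, 21 of them on the first array type, limma called 0 in either direction by the brightest probe set. At an unadjusted p below 0.05, 1 was higher and 6 were lower, and the median log2 fold change was -0.05. Over all tested probe sets, 6.71% (first array type) and 14.1% (second) were lower at that unadjusted p, and 11% and 13.2% were higher. Pdk2, a sister kinase of Pdk4, came nearest to the threshold. It averaged 10.75 ± 0.21 after PCN and 11.28 ± 0.24 in corn oil (SD, n = 5 each; log2 fold change -0.53, adjusted p = 0.0566, limma), without overlap between the groups, while its other probe set gave -0.27 (adjusted p = 0.49). Gckr, which holds glucokinase in the nucleus, averaged 10.43 ± 0.22 after PCN and 11.09 ± 0.37 in corn oil (SD, n = 5 each; log2 fold change -0.66, adjusted p = 0.0618). Both were called under several scalings, and the count of genes lower was 5 when arrays were centred on the common probe sets and 4 with array weights. Pdp2, a phosphatase that undoes the action of the kinases on pyruvate dehydrogenase, was called higher by both of its probe sets on the second array type. Their log2 fold changes were 0.95 (adjusted p = 0.0395) and 0.65 (adjusted p = 0.0317, limma), while the probe set that stands for it, on the first array type, gave 0.53 (adjusted p = 0.108). Pdp2 is named after its values were seen, and its calls were lost when 8 and 6 of the 9 arrays were left out in turn (adjusted p up to 0.121 and 0.0891, both without corn oil replicate 1) and after quantile normalization (0.0703 and 0.058).

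Hormonal and transcriptional regulators gave 1 call, lower, among 44 tested genes, 40 of them on the first array type, with a median log2 fold change of 0.01. At an unadjusted p below 0.05, 4 were higher and 3 were lower. Over all tested probe sets, limma called 0.945% (first array type) and 1.64% (second) lower. At the unadjusted p, 6.71% and 14.1% of all were lower, and 11% and 13.2% were higher. Pde4d, a phosphodiesterase that breaks down cAMP, fell to 7.55 ± 0.09 (SD, n = 5) after PCN, against 7.85 ± 0.06 (SD, n = 4) in corn oil (log2 fold change -0.30, adjusted p = 0.0368, limma). Its groups did not overlap on the second array type, but the call was lost when 7 of the 9 arrays were left out in turn (0.1 without corn oil replicate 4), with the replicate block (0.0799) and with a common median (0.0641). A probe set of Crtc3, a coactivator of CREB, other than the one that stands for it passed as well (-0.28, adjusted p = 0.0431), and Crtc3 is named after its value was seen. That call was lost with a common median (0.0679) and when 8 of the 9 arrays were left out in turn (up to 0.11, without corn oil replicate 4), and the probe set that stands for Crtc3 gave -0.25 (adjusted p = 0.419). None of the 11 tested glucocorticoid-responsive genes was called by limma, with 1 lower at an unadjusted p below 0.05. The smallest p values in that list were those of Klf9 (log2 fold change -0.63, adjusted p = 0.113) and Mt2A (0.40, adjusted p = 0.414).

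**Figure D5:**
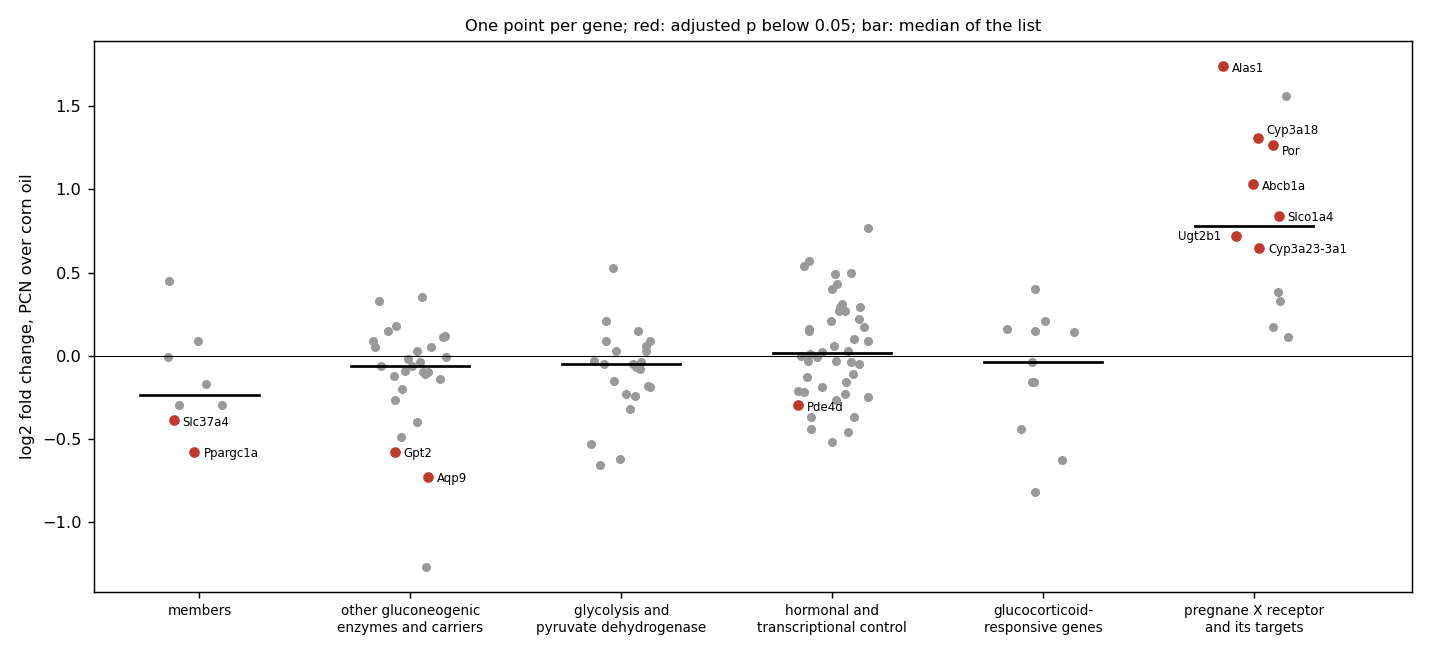
Log2 fold change of PCN over corn oil (vertical axis) for each tested gene of 6 lists, with a point per gene, the median of the list as a bar and genes past an adjusted p of 0.05 in red with their names. The red points lie below 0 for the members, the other gluconeogenic enzymes and carriers, and hormonal and transcriptional control. They lie above 0 in the list of the pregnane X receptor and its targets, of which 7 of 12 rose. The glycolysis and glucocorticoid lists have no red point. Each gene stands by a single probe set, so the calls of other probe sets of Pdp2 and Slc25a13, higher, and Crtc3, lower, are not shown.

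By the probe set that stands for each gene, markers of other cell types were not called by limma in either direction. Another probe set of Cd163, a Kupffer cell marker, was called higher on the second array type, and it is named after its value was seen. The probe set that stands for Cd163 gave a log2 fold change of 0.40 there (adjusted p = 0.136, limma). Kupffer cell, stellate cell, endothelial, cholangiocyte, red cell, lymphocyte and neutrophil lists had 12, 10, 8, 4, 4, 6 and 2 tested genes. At an unadjusted p below 0.05, 2 of the 4 red cell markers and 4 of the 6 lymphocyte markers were lower after PCN, and 3 of the 10 stellate cell markers, 1 of the 12 Kupffer cell markers and 1 of the 2 neutrophil markers were higher. Over all tested probe sets, 6.71% (first array type) and 14.1% (second) were lower at that threshold, and 11% and 13.2% were higher. Of the 6 lymphocyte markers, 3 were tested on the second array type. The summed level of the red cell markers, on a log2 scale, ran from 13.63 to 14.29 in PCN livers and from 14.11 to 14.46 in corn oil livers. That of the stellate cell markers ran from 12.40 to 12.70 in PCN livers and from 12.00 to 12.44 in corn oil livers. Linear values were summed, so the brightest gene weighed most in each sum. Among the red cell markers this was Hbb, which averaged 14.14 in corn oil against 10.45 for Alas2. Among the stellate cell markers it was Col3a1, at 11.20 in corn oil against 8.74 for Col1a2. The part of these cell types in the results was not tested.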

How the data were processed

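Per the labels' protocols, total liver RNA was extracted with column DNase treatment and labelled as biotinylated cRNA. The authors deposited log2 values per probe set, and the submitters' processing notes name MAS5 without a version. The base was inferred from the range, 4.31 to 15.2 on the first array type and 3.10 to 14.1 on the second. Summarization, centring and scaling between arrays are not given in the sources used here. Medians per array were 7.75, 7.78, 7.81, 7.73 and 7.76 for PCN replicates 1 to 5 and 7.77, 7.72, 7.77, 7.78 and 7.76 for corn oil on the first array type. They were 6.25, 6.26, 6.26, 6.26 and 6.32 for PCN and 6.32, 6.32, 6.32 and 6.33 for corn oil replicates 1, 3, 4 and 5 on the second.

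Each table was tested alone, since the scales differ. The 57 control probe sets and any whose mean lay under the 30th percentile, 6.67 and 5.51, were left out, which left 11106 and 10693. PCN was compared with corn oil in limma 3.58.1 (R 4.3.3) with treatment alone and an intensity trend, two-sided, with Benjamini-Hochberg adjustment over the table and a threshold of 0.05. The script was tested on simulated data. Gene symbols follow RefSeq GRCr8. Genes of the fixed lists stand by their brightest tested probe set, on the first array type where possible, and up to 4 called genes of a list, or the 2 with the smallest p, were named. All member probe sets were named. The members and lists were chosen with earlier results of these data known. Alternatives covered filters, scalings, variance models, array weights, a replicate block, terms for sets of arrays and leaving out each array. The term for the sets found by an earlier analysis was added after seeing the data.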

Additional observations from a re-analysis of the deposited data

Results flagged for a closer look

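Of 26 groups of member values examined, 2 held an array far from the others, where about 1.3 would be expected by chance at 1 in 20. Ppargc1a on the second array type was at 7.28 for corn oil replicate 1, while its 3 companions lay at 7.82 to 7.90. Fbp1 on the first array type was at 13.52 for corn oil replicate 2, while the remaining 4 lay at 13.69 to 13.76.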

How the results depend on the processing

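Every setting kept the sign of Slc37a4 and Ppargc1a, and that of Pc. The count of probe sets called on the first array type, 361, became 239 with the replicate block, 1051 with array weights, 104 in an unmoderated test and 165 with the added term for 2 sets of arrays, and ran from 154 to 447 when single arrays were left out. On the second, 577 became 6493 when centred on the common probe sets, 203 with the replicate block, 1475 with array weights and 46 unmoderated, and ran from 84 to 1477 without single arrays. Of the members, the first array type's single call lower became 0 without a filter, with a common median, with the replicate block, in an unmoderated test and with the added term, with or without corn oil replicate 2, and 2 when centred on the common probe sets. It was 0 to 1 without single arrays. The second array type's single call became 2 without a filter and 0 unmoderated, and 0 to 1 without single arrays. Slc37a4 had adjusted p values of 0.0596 without a filter, 0.0556 with a common median, 0.082 unmoderated and 0.0967 with the added term and no corn oil replicate 2.

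Signs turned only for members that were not called. Fbp1 was 0.0037 with the term for 2 sets of arrays and 0.019 with the added one, Pck1 0.019 and 0.012 with the added term with and without corn oil replicate 2, and Slc2a2 -0.045 and -0.037 likewise. The second tested probe set of Foxo1 was 0.0035 after cyclic loess. Pdk4 was -0.27 with array weights on the first array type. For the second type it was -0.15 after quantile normalization, -0.18 after cyclic loess, -0.19 when centred on the common probe sets and -0.10 with the replicate block. Without single arrays the ranges were -0.058 to 0.020 for Fbp1, -0.10 to 0.018 for that of Foxo1, -0.11 to 0.84 and -0.30 to 0.49 for Pdk4 (first and second array type). The cause of these changes was not tested.

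Deviations of same-numbered PCN and corn oil arrays correlated between -0.30 and 0.28 for the first array type and between 0.02 and 0.20 for the second. Replicate 3 correlated best with its own number in both groups on both array types (0.28 and 0.20), and no other number did so. So few correlations cannot settle whether the replicate numbers pair the livers. With 4 or 5 arrays a group, calls near the threshold depend on single arrays.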

Other observations

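The 4 probe sets that list Psme3, Aoc3 and G6pc1 together cannot be assigned to any of these genes, so their values are given here without a gene. Of these, a pair with large spread averaged 12.43 ± 0.89 and 13.69 ± 0.74 after PCN, against 12.15 ± 1.03 and 13.65 ± 0.56 in corn oil (SD, n = 5 each), and PCN over corn oil was 0.27 (adjusted p = 0.816, limma) and 0.05 (0.956) on the log2 scale. The other pair averaged 9.99 ± 0.18 and 9.72 ± 0.11 after PCN, against 9.56 ± 0.31 and 9.42 ± 0.16 in corn oil (SD, n = 5 each), and PCN over corn oil was 0.44 (adjusted p = 0.14, limma) and 0.31 (0.125).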
